A study of Bos taurus with 25 samples.

Results

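The hepatic arrays of cows that received vitamin B9 (folic acid), alone or combined with vitamin B12, were compared with those of cows that received no vitamin B9. Arrays were assigned by the treatment given in the labels, and 5 of the 12 liver arrays carried vitamin B9 while 7 did not, out of 25 arrays in the series, of which 13 were from mammary gland. The groups without vitamin B9 were the Control group (3 arrays, weekly intramuscular saline) and the B12 group (4 arrays, 10 mg of cyanocobalamin per injection). The groups with vitamin B9 were the B9 group (3 arrays, 320 mg of pteroylmonoglutamic acid per injection) and the B9 + B12 group (2 arrays, both doses together). Every injection had a volume of 5 mL, and every cow was a lactating Holstein whose liver was biopsied 64 ± 3 days after calving. Each array held the RNA of a different cow, the labels give no age, and the number of arrays limits the precision. The question was which transcripts differed with vitamin B9 whether or not the cow also received vitamin B12.

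Vitamin B9 carries one-carbon units between serine, glycine, purines, thymidylate and methionine. Vitamin B12 is the cofactor of methionine synthase, where the folate cycle hands its methyl group to homocysteine, and of methylmalonyl-CoA mutase, which brings propionate into the citric acid cycle. In the ruminant liver propionate is the main precursor of glucose, so both vitamins bear on hepatic energy metabolism around calving.

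The liver label was borne out by the hepatocyte markers, genes of plasma proteins and amino acid breakdown such as ALB, TTR and CPS1. All 15 on the array were well above background, and their summed level was 21.57 to 21.68 (log2 intensity) in the arrays without vitamin B9 and 21.51 to 21.66 in those with it. The share of probes well above background was 71.2 to 84.2% per array.

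The arrays of cow 57 (B9) and cow 32 (B9 + B12) stood apart from the rest of the liver arrays. Their median correlation with the other arrays was 0.972 and 0.973, against 0.989 to 0.992 for the remaining 10. Compared with the mean of the group without vitamin B9 at the same level of vitamin B12, 11.3% of the probes of cow 57 and 9.22% of those of cow 32 were more than 2-fold away. This share was 1.18% for cow 39, 0.639% for cow 41 and 1.26% for cow 38, the other cows given vitamin B9. The deviations of cows 57 and 32 correlated with each other across probes (Pearson r = 0.695 over 32192 probes), while those of the other pairs of a B9 and a B9 + B12 array had r between −0.196 and 0.087. Cow 32 also had the lowest share of probes well above background and the lowest median signal over background (2.3 against 3.22 to 10.5 in the others). It was scanned on a separate day with cow 43 (Control) and cow 37 (B12), whereas cow 57 shared its slide and scan day with cows 42 and 38. Since each group with vitamin B9 contained such an array, the main results are given with and without both, and what set these arrays apart was not tested.

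**Figure D1:**
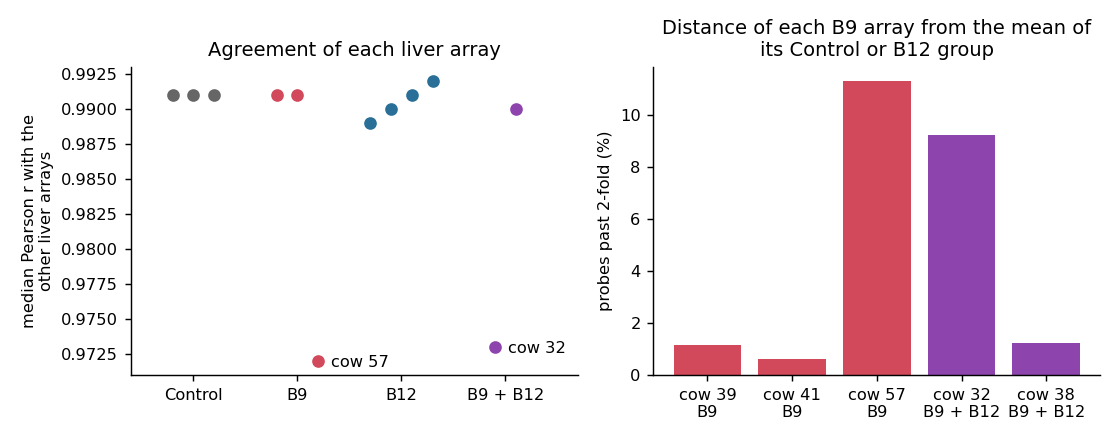
Left, median Pearson correlation of each liver array with the others, by treatment group, 1 point per cow. Right, share of probes more than 2-fold from the mean of the Control group (B9 arrays) or of the B12 group (B9 + B12 arrays), 1 bar per cow. Cows 57 and 32 lie at 0.972 and 0.973 on the left and at 11.3% and 9.22% on the right, away from all others.

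No hepatic gene was changed by vitamin B9 at an adjusted p of at most 0.05 (limma, Benjamini-Hochberg over all probes) and at least 2-fold (0 of 43653 probes, 0% of those tested). The model had a term for vitamin B9 and a term for vitamin B12, and the smallest adjusted p was 0.181. At an unadjusted p below 0.05, 4354 probes differed (9.97%), 2210 higher and 2144 lower, of which 59 also differed by at least 2-fold. Without cows 57 and 32 this number was 1148 (2.63%), and without the 3 arrays of the second scan day it was 759 (1.74%), again with no gene called. For comparison, the vitamin B12 term of the same model gave 1034 probes (2.37%). The effect of vitamin B9 tested on its own without vitamin B12 gave 0 genes called and 1545 probes at an unadjusted p below 0.05, and with vitamin B12 0 genes and 3524 probes (smallest adjusted p by limma 0.906 and 0.0679). Leaving out 1 array, with at least 2 kept per group, gave 823 to 3684 such probes without vitamin B12 and 2499 to 6359 with it. The interaction of both vitamins gave 0 genes called and 1767 probes with all 12 arrays. Cyber-T, a regularised test used here as an alternative, called 0 genes for the main effect, 4 without vitamin B12, 13 with it and 1 for the interaction.

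The genes described from here on are the 9199 with a current symbol that were well above background on at least 10 of the 12 liver arrays, each represented by its brightest probe. At an unadjusted p below 0.05, 654 of them (7.11%) were higher and 642 (6.98%) lower with vitamin B9. Without cows 57 and 32 these numbers were 153 and 209. Over the 1296 genes, the difference without both cows was a median of 0.456 times that over all 12 arrays.

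A gene was considered to hold with and without vitamin B12 when the 3 B9 arrays were all above, or all below, the 3 Control arrays and the 2 B9 + B12 arrays differed from the 4 B12 arrays in the same way. This held for 92 genes, 45 higher (0.489% of the genes described) and 47 lower (0.511%) with vitamin B9. For any gene, 1 of the 300 arrangements of vitamin B9 within the levels of vitamin B12 gives this order in each direction, a share of 0.00333. Some genes thus meet the rule by the order of the arrays alone, and the difference from this share was not tested. The rule, which fewer arrays meet more easily, held for 231 genes without cows 57 and 32, and it held for 108 to 426 when 1 array was left out. Considered separately, the arrays lay apart in 727 genes without vitamin B12 (7.9%) and in 2109 genes with it (22.9%). In 38 of the 92 genes (0.413% of the genes described) all 5 arrays with vitamin B9 also lay beyond all 7 without it, 18 higher and 20 lower. None of the 92 differences reached 2-fold. On the log2 scale they ranged from 0.0957 to 0.979 in size with a median of 0.383, which was 0.233 without cows 57 and 32. Because separation of the arrays chose these genes, their values are given as a description, and the limma p beside them was adjusted over all probes.

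The effects of vitamin B9 in cows without and with vitamin B12, which share no array, had the same sign in 67.5% of the genes described and correlated across genes with r = 0.423. Without cows 57 and 32 the correlation was −0.135. Genes are not independent replicates, and these correlations carry no test.

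**Figure D2:**
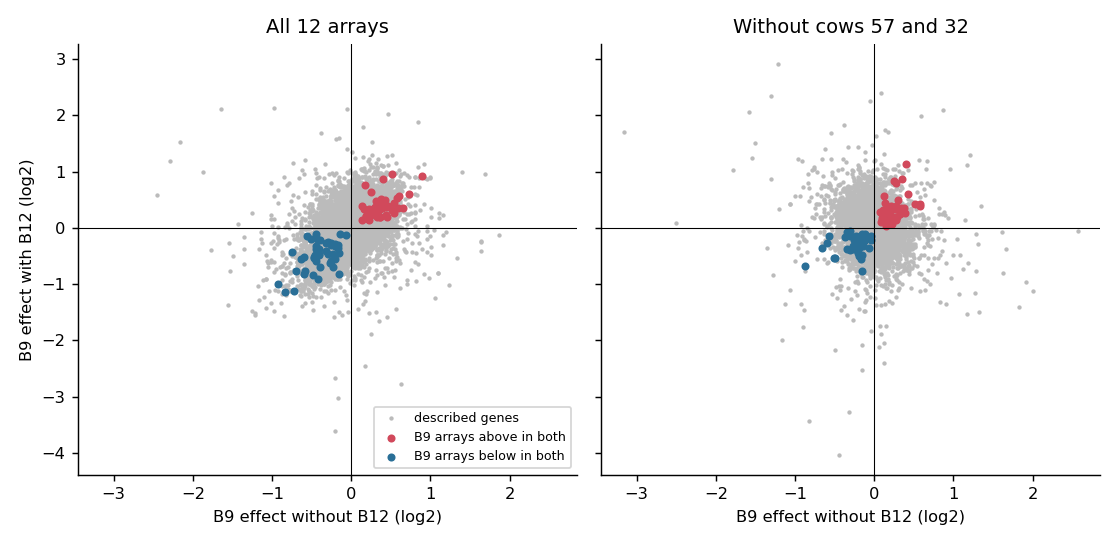
Effect of vitamin B9 on each of 9199 hepatic genes without vitamin B12 (x axis, B9 minus Control, log2) against the effect with it (y axis, B9 + B12 minus B12, log2), for all 12 arrays (left) and without cows 57 and 32 (right). Coloured points are the 92 genes on the same side in both, and the cloud is tilted upward on the left (r = 0.423) but not on the right (r = −0.135).

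Among the 47 genes that were lower with vitamin B9 at both levels of vitamin B12, CDKL4, a cyclin-dependent kinase-like protein kinase, had one of the largest differences. Its log2 intensity was 9.77, 9.15 and 9.57 in the Control cows, 8.37, 8.90 and 8.48 with B9, 8.92, 9.54, 9.02 and 9.45 with B12, and 7.89 and 8.57 with B9 + B12. All 5 arrays with vitamin B9 were below all 7 without it, with cow 41 (B9) just under cow 36 (B12). The difference was −0.96 ± 0.173 (log2, standard error), a 1.94-fold lower level (adjusted p = 0.476 by limma), and it was −0.79 without cows 57 and 32.

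RABL3, a small GTPase of the Rab-like family, had one of the smallest unadjusted p values of the comparison (0.000101 by limma, adjusted p = 0.476). Its log2 intensity was 8.69, 8.58 and 8.69 in Control and 8.57, 8.48, 8.48 and 8.65 in B12 cows, against 8.25, 7.85 and 8.07 with B9 and 7.79 and 8.28 with B9 + B12. The groups did not overlap, and the difference of −0.56 ± 0.093 was −0.47 without cows 57 and 32.

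IFT25, a subunit of the intraflagellar transport complex that serves primary cilia, was 9.49, 9.82 and 9.63 in Control and 9.70, 9.52, 9.69 and 9.78 in B12 cows, against 9.23, 8.75 and 8.70 with B9 and 9.19 and 9.32 with B9 + B12. The groups again did not overlap, with a difference of −0.59 ± 0.113 (−0.53 without cows 57 and 32). NUSAP1, a microtubule-binding protein of the mitotic spindle, differed by −0.60 ± 0.151 (−0.51 without both cows), and both B9 + B12 arrays lay just under the lowest B12 array (7.05). A further NUSAP1 probe was well above background on only 6 of the 12 arrays.

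NGEF, a guanine nucleotide exchange factor, had the largest difference of the 92 genes (−0.98 ± 0.271, 1.97-fold). Its log2 intensity was 14.83, 15.25 and 14.91 in Control and 14.29, 14.71 and 13.49 in B9 cows, and 14.63, 14.21, 15.23 and 14.92 in B12 and 13.01 and 14.20 in B9 + B12 cows. The lowest value of each group with vitamin B9 was that of cow 57 or cow 32, cow 38 (B9 + B12) lay just under cow 37 (B12), and without both cows the difference was −0.52.

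Among the genes lower at both levels, the remaining large differences were largest in cows 57 and 32. TRA2A, a regulator of pre-mRNA splicing, was 10.81 to 10.98 in the 7 arrays without vitamin B9 and 10.71, 10.69 and 10.71 in cows 39, 41 and 38, but 9.20 in cow 57 and 9.49 in cow 32. Its difference of −0.73 ± 0.274 was −0.19 without these cows. The same arrays were the lowest for ARHGEF12 (a guanine nucleotide exchange factor, −0.91, and −0.29 without them) and USP8 (a deubiquitinase of endosomes, −0.67 and −0.21). They were also lowest for DNTTIP2 (a nucleolar protein, −0.70 and −0.24), DNM1L (the GTPase of mitochondrial fission, −0.65 and −0.29) and MTREX (the helicase of the nuclear RNA exosome, −0.65 and −0.22). Other probes of these genes, all well above background, had smaller differences of the same sign, being −0.18 for ARHGEF12, −0.28 for TRA2A, −0.44 to −0.28 for USP8, −0.51 to −0.40 for DNTTIP2, −0.54 and −0.26 for MTREX and −0.63 for DNM1L. Without both cows these probes ranged from −0.27 (DNM1L) to 0.08 (USP8 and DNTTIP2), several of them at 0 or above.

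Among the 45 genes higher with vitamin B9 at both levels of vitamin B12, GALNT18, a member of the family of enzymes that start mucin-type O-glycosylation, was 8.64, 8.65 and 8.46 in Control and 8.41, 8.28, 8.42 and 8.78 in B12 cows. It was 9.05, 8.81 and 9.08 with B9 and 9.31 and 9.34 with B9 + B12, so that all 5 arrays with vitamin B9 were above all 7 without it. The difference was 0.61 ± 0.112 (adjusted p = 0.476 by limma) and 0.56 without cows 57 and 32, and a second probe of GALNT18 differed by 0.12.

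SNF8, a subunit of the endosomal sorting complex ESCRT-II, and EFHD2, a calcium-binding actin regulator, had small differences with little spread. SNF8 was 11.80 to 12.05 in the 7 arrays without vitamin B9 and 12.18 to 12.49 in the 5 with it, a difference of 0.40 ± 0.069 (0.35 without cows 57 and 32). Its 3 other probes, well above background on all 12 arrays, were at 0.40, 0.17 and 0.09, and at 0.18, 0.04 and 0.08 without both cows. EFHD2 was 12.60, 12.54 and 12.45 in Control and 12.99, 12.82 and 12.95 in B9 cows, and 12.83, 12.85, 12.74 and 12.50 in B12 and 13.11 and 13.08 in B9 + B12 cows. For EFHD2 the arrays were apart within each level of vitamin B12, with 1 B9 array (12.82) inside the range of the B12 group, and the difference was 0.38 ± 0.067 (0.36 without both cows). A second EFHD2 probe, well above background on all 12 arrays, differed by 0.43, and by 0.20 without both cows, and did not lie apart at both levels. For the brightest probes of SNF8 and EFHD2 the unadjusted limma p was 0.000113 and 0.00017.

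GPAT3, an acyltransferase of the first step of glycerolipid synthesis, was 10.37, 10.26 and 9.94 in Control and 11.02, 10.51 and 10.98 in B9 cows. In cows receiving vitamin B12 it was 10.04, 10.61, 10.68 and 10.36 without vitamin B9 and 10.73 and 10.81 with it. The difference was 0.51 ± 0.142 and 0.50 without cows 57 and 32. Other GPAT3 probes differed by 0.63 and 0.09, and by 0.61 and 0.07 without both cows. IFT20, another subunit of the intraflagellar transport complex, was 9.57 to 10.09 without vitamin B9 and 10.21 to 11.05 with it (0.72 ± 0.160, and 0.49 without both cows), in the opposite direction to IFT25. A second IFT20 probe differed by 0.63, and by 0.37 without both cows, and did not lie apart at both levels.

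CEACAM19, a cell adhesion molecule, had the largest difference of the genes higher at both levels of vitamin B12 (0.90 ± 0.246, 1.87-fold, 0.69 without cows 57 and 32). It was 10.38 in cow 57 and 8.72 to 9.72 in the other 4 cows given vitamin B9, against 8.29 to 8.96 in the 7 cows without it. The second CEACAM19 probe was not well above background on any liver array. For RPL15, a ribosomal protein, the brightest probe differed by 0.67 (0.49 without cows 57 and 32), but its 8 probes ranged from −0.23 to 0.67 and only 3 had this sign. SOX2, a transcription factor, differed by 0.59 on its brightest probe (0.26 without cows 57 and 32), and its other probes were well above background on only 6 and 2 of the 12 arrays. The secreted matrix protein CCN5 (0.55), the peptide hormone APLN (0.49), the deubiquitinase OTUD7B (0.49) and the Golgi membrane protein YIPF3 (0.46) had their highest value in cow 57, and differed by 0.34, 0.28, 0.22 and 0.19 without both cows. A second OTUD7B probe, well above background on all 12 arrays, differed by 0.03.

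**Figure D3:**
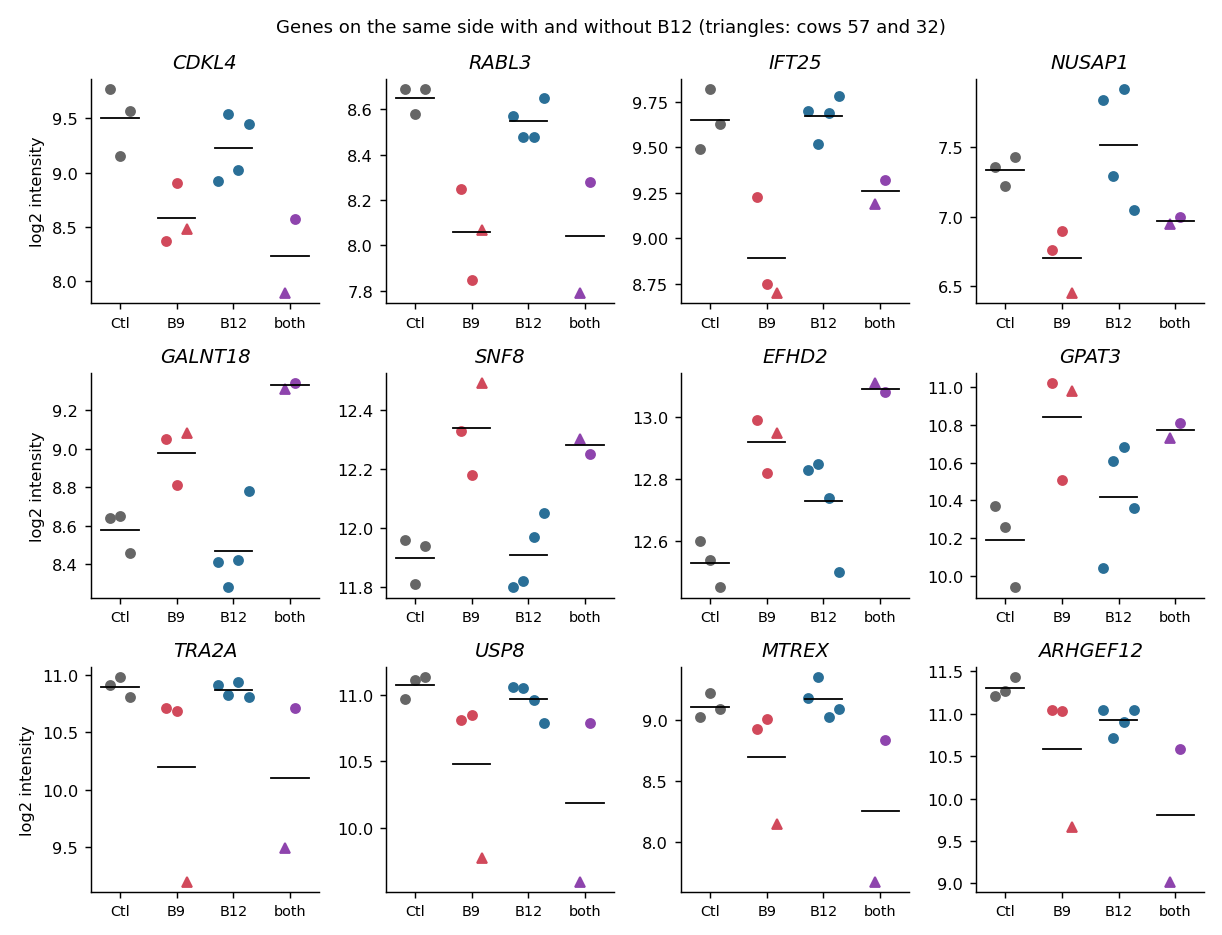
Log2 intensity of 12 of the 92 genes in each liver array, by treatment group (Ctl is Control, both is B9 + B12), with group means as lines and cows 57 and 32 as triangles. In RABL3, in the upper rows, cow 57 (8.07) lies between the other B9 arrays (8.25 and 7.85). Cow 32 (7.79) lies below the other B9 + B12 array (8.28) and is the lowest of all. In the lowest row, as in TRA2A, both triangles lie far below the other arrays given vitamin B9.

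Of the folate cycle, the enzymes that load, interconvert and spend one-carbon units, 16 genes were described. None was higher and 1 was lower with vitamin B9 at an unadjusted p below 0.05, where 7.11% of all genes described were higher and 6.98% lower. In either direction the share of the list was 6.25%, against 14.1% of all genes described. The median difference was −0.0667 on the log2 scale, against 0.0373 over all genes described. The lower gene was GLDC, the decarboxylating subunit of the glycine cleavage system. It was 13.02, 12.77 and 12.99 in Control and 12.25, 12.87 and 11.60 in B9 cows, and 13.12, 12.51, 12.96 and 13.16 in B12 and 12.12 and 12.54 in B9 + B12 cows. Cow 41 and cow 38 lay within the range of their comparison group and the lowest value was that of cow 57. The difference was −0.65 ± 0.201 (adjusted p = 0.476 by limma, exact permutation of vitamin B9 within each level of vitamin B12, two-sided, p = 0.02) and −0.38 without cows 57 and 32.

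The other enzymes of the cycle shown in the plot of folate genes differed by −0.17 (MTHFD1) to 0.34 (MTHFS). SHMT1, the cytosolic serine hydroxymethyltransferase, differed by 0.01 ± 0.111. MTHFD1, the trifunctional cytosolic enzyme, was 14.31, 14.21 and 14.51 in Control and 13.73, 14.21 and 13.81 in B9 cows, a difference of −0.43 without vitamin B12, whereas the difference was 0.12 with it.

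Of 5 described genes for folate uptake and retention, 1 was higher at an unadjusted p below 0.05, where 7.11% of all genes were, with a median difference of 0.282 (0.0119 without cows 57 and 32). SLC46A1, the proton-coupled folate transporter, was 8.96, 8.98 and 9.08 in Control and 9.73, 8.86 and 10.10 in B9 cows, and 8.63 to 9.11 in B12 and 10.05 and 9.32 in B9 + B12 cows. Of the 5 cows given vitamin B9, only cow 41 was not above all cows without it. The difference was 0.67 ± 0.210 (adjusted p = 0.476 by limma, exact permutation p = 0.0233, two-sided) and 0.34 without cows 57 and 32. FOLR2, a folate receptor, differed by 0.04 without vitamin B12 and 0.69 with it. SLC19A1 (the reduced folate carrier), FPGS (which adds the glutamates that keep folate in the cell) and GGH (which removes them) differed by 0.28, 0.18 and −0.24, and by −0.12, −0.02 and 0.01 without both cows.

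Of 13 genes for vitamin B12 uptake, processing and use, 1 held with and without vitamin B12 (7.69%, against 1% of all genes described), a share that rests on this gene alone. This gene was MMAA, the chaperone that loads the cofactor onto methylmalonyl-CoA mutase. It was 12.10, 12.37 and 12.37 in Control and 11.69, 11.73 and 11.74 in B9 cows, and 11.89, 11.89, 12.02 and 11.98 in B12 and 11.78 and 11.80 in B9 + B12 cows. All 5 arrays with vitamin B9 were below all 7 without it. The difference was −0.37 ± 0.083 over both levels of vitamin B12 and −0.40 without cows 57 and 32, being −0.56 without vitamin B12 and −0.15 with it (interaction by limma, unadjusted p = 0.00602, adjusted p = 1). The mutase itself (MMUT) and the transport protein TCN2 differed by −0.17 ± 0.259 and 0.19 ± 0.138. The other 10 ranged from −0.36 (MMADHC, which directs the cofactor within the cell) to 0.31 (ABCC1, an exporter of cobalamin), and these were 0.12 and 0.04 without cows 57 and 32. Of 15 genes of the methionine cycle and transsulfuration, only BHMT, the betaine-dependent methyltransferase of homocysteine, passed an unadjusted p of 0.05 (6.67% of the list against 14.1% of all genes described, −0.49 ± 0.216, and −0.36 without both cows), and methionine synthase (MTR) differed by 0.02 ± 0.096.

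**Figure D4:**
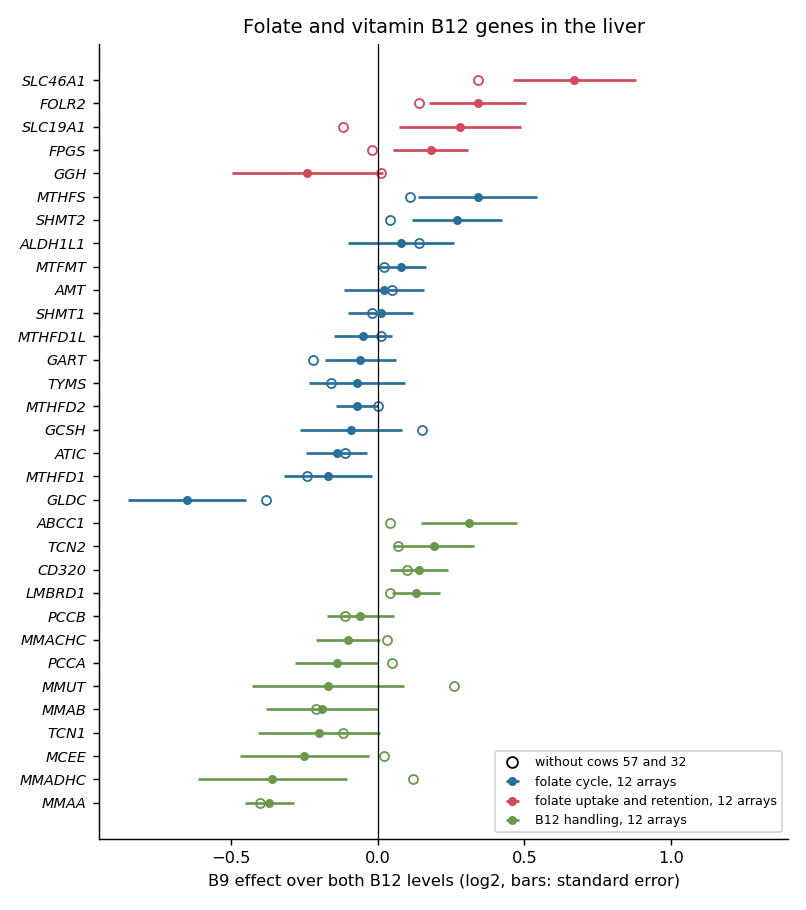
Difference with vitamin B9 over both levels of vitamin B12 (x axis, log2, filled points with standard error, 12 arrays) for the genes of folate uptake, the folate cycle and vitamin B12 handling reported here (y axis), with the value without cows 57 and 32 as open circles. GLDC at −0.65 and SLC46A1 at 0.67 lie farthest from 0, and both open circles are nearer to it, whereas MMAA is at −0.37 and −0.40.

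Of the genes named for the liver in the study and followed here, LOXL4, a lysyl oxidase-like enzyme that crosslinks collagen, differed alike at both levels of vitamin B12. It was 9.98, 10.09 and 10.82 in Control and 11.31, 10.47 and 11.70 in B9 cows, and 11.44, 11.04, 10.78 and 10.52 in B12 and 11.93 and 11.74 in B9 + B12 cows. Only cow 41, below 1 Control cow, kept LOXL4 from lying apart at both levels. The difference was 0.86 without vitamin B12, 0.89 with it and 0.87 ± 0.236 over both (1.83-fold, adjusted p = 0.476 by limma, exact permutation p = 0.0167, two-sided, where the smallest possible is 0.00333). It was 0.67 without cows 57 and 32. These genes were chosen by the study on the same arrays, and so are not independent evidence, and the same holds for NGEF, IFI6, HERC6 and PYCR1, which the study also lists. The study also measured several by quantitative PCR in all its cows, each treatment against Control. It reported LOXL4 higher with B9 alone or combined, and DLK1 and HP lower with every vitamin treatment. MT1A was reported lower with B12 alone or combined and G0S2 higher with B12, with no significant effect for HERC6, IFI27 and SFRP1.

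DLK1, an imprinted regulator of growth and fat cell formation, differed by −0.04 over both levels, being −0.79 without vitamin B12 and 0.79 with it (interaction unadjusted p = 0.00567, adjusted p = 1 by limma) on the brightest of 5 probes. The others gave −0.70 to −2.44 without vitamin B12, 0.78 to 1.27 with it and −0.69 to −0.01 over both. Leaving out cows 57 and 32, the brightest probe was at −0.46 over both levels, −1.06 without vitamin B12 and 0.43 with it. On this probe DLK1 was 12.43, 12.84 and 12.15 in Control and 11.51, 11.33 and 12.23 in B9 cows, and 11.65, 11.54, 11.29 and 12.16 in B12 and 12.82 and 12.09 in B9 + B12 cows. MYOM1, a protein of the muscle sarcomere, differed by −2.45 and 0.58 at the 2 levels, and G0S2, an inhibitor of triglyceride breakdown, by 1.64 and −0.41 (interaction unadjusted p = 0.0278 and 0.0398). Without both cows these were −2.50 and 0.09 for MYOM1 and 1.14 and 0.14 for G0S2. Cyber-T called DLK1 and MYOM1 lower without vitamin B12. None of these 3 differed alike with and without vitamin B12. The acute phase protein HP (−0.12), the macrophage glycoprotein GPNMB (0.47) and the Wnt antagonist SFRP1 (−0.01) had standard errors of 0.529, 0.547 and 0.449. Leaving out cows 57 and 32, these were −0.41, −0.34 and 0.23, so that GPNMB and SFRP1 turned their sign. The metallothionein MT1A (−0.54 ± 0.536) and the transporter SLC22A9 (−0.64 ± 0.379) were at −1.10 and −0.04 without both cows. The glutathione transferase GSTA5 was at −0.52 ± 0.224 and −0.24 without cows 57 and 32.

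In 37 genes (0.402%) the arrays lay apart at both levels of vitamin B12 in opposite directions, 17 higher and 20 lower with vitamin B9 in its absence. AZGP1, a lipid-mobilising glycoprotein, was 11.14, 12.18 and 11.77 in Control and 13.27, 12.45 and 13.10 in B9 cows, but 12.39, 12.43, 12.81 and 12.36 in B12 and 11.98 and 10.97 in B9 + B12 cows. With vitamin B9 it was thus 1.24 higher on the log2 scale without vitamin B12 and 1.02 lower with it. IMPA2, an inositol monophosphatase (0.82 and −0.44), CTSC, a lysosomal dipeptidyl peptidase (0.61 and −0.63), and SNURF, from an imprinted locus (0.38 and −0.18), followed the same order. Leaving out cows 57 and 32, these pairs were 1.17 and −1.53 for AZGP1, 0.63 and −0.34 for IMPA2, 0.68 and −0.54 for CTSC, and 0.48 and −0.15 for SNURF. Arrays that lie apart stay apart when some are left out, so the signs of genes chosen this way could not turn.

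IGFLR1, a receptor of the tumour necrosis factor receptor type, had the opposite order (−1.65 and 2.12). Its intensity was 9.59, 9.75 and 7.36 in Control and 7.29, 7.35 and 7.11 in B9 cows, and 7.20, 7.20, 7.33 and 8.55 in B12 and 9.75 and 9.62 in B9 + B12 cows, so that 2 Control and both B9 + B12 arrays lay high and the others low, with cow 52 between. CLRN2 (−0.85 and 0.91), GADD45B, a stress-induced growth arrest gene (−0.97 and 0.57), and TMEM100 (−0.42 and 0.51) had the same order as IGFLR1. Without both cows the pairs were −1.58 and 2.06 for IGFLR1, −0.53 and 0.94 for CLRN2, −1.07 and 0.42 for GADD45B, and −0.34 and 0.61 for TMEM100. At an unadjusted p below 0.05 the interaction counted 465 genes (5.05%), and no interaction passed adjustment over all probes by limma with all 12 arrays (1 gene, IFI6, did by Cyber-T).

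Interferon-stimulated genes, the antiviral programme that interferons switch on, were lower with vitamin B9 where vitamin B12 was also given. Of 20 described, 14 were lower and 0 higher at an unadjusted p below 0.05 in this comparison, where 5.59% of all genes described were lower and 6.08% higher. The median difference was −1.38 with vitamin B12 (−1.32 without cows 57 and 32) and −0.032 without it, where none of the 20 passed (4.2% of all genes described did). The interaction had an unadjusted p below 0.05 in 9 of the 20, against 5.05% of all genes described. This list was chosen with earlier results of these arrays known, and its counts are a description.

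IFI6, an interferon-induced mitochondrial protein, was 17.50, 16.25, 16.92 and 16.81 in the B12 group and 13.69 and 12.83 in the B9 + B12 group. In Control it was 13.36, 13.07 and 12.97, and in the B9 group 12.65, 12.75 and 13.42. The 4 B12 arrays stood alone, and both B9 + B12 arrays lay near the levels of the cows without vitamin B12. The difference with vitamin B9 was −3.61 where vitamin B12 was given (12.2-fold, adjusted p = 0.0679 by limma) and −0.20 where it was not (interaction −3.41, unadjusted p = 4.03e-05, adjusted p = 1 by limma). Without cows 57 and 32 it was −4.04 (adjusted p = 0.0325 by limma), with cow 38 (12.83) as the only B9 + B12 array, whose spread was assumed to equal that of the other groups.

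IFI27 had the same pattern, with 17.47, 16.55, 17.12 and 17.09 in the B12 group and 14.43 and 13.61 in the B9 + B12 group, a difference of −3.03, against −0.17 without vitamin B12 (−3.44 and −0.82 without cows 57 and 32). With other background corrections, scaling, filters or averaging of probes, IFI6 alone was called with vitamin B12 in 7 settings, at an adjusted p by limma of 0.00906 to 0.0462. In others no gene was called, the smallest adjusted p by limma being 0.594 with the processed signal, 0.531 with slide as a fixed block, 0.425 with array weights, 0.37 with both groups compared alone and 0.324 with scan day as a block. HERC6, an interferon-induced E3 ligase (−2.45 and 0.17), and XAF1, an interferon-induced regulator of apoptosis (−1.28 and −0.06), were also lower in both B9 + B12 arrays than in all 4 B12 arrays, as were 11 of the 20 genes in all, against 9.24% of all genes described. In a comparison of 2 arrays with 4, the smallest p of an exact permutation test is 0.0667.

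**Figure D5:**
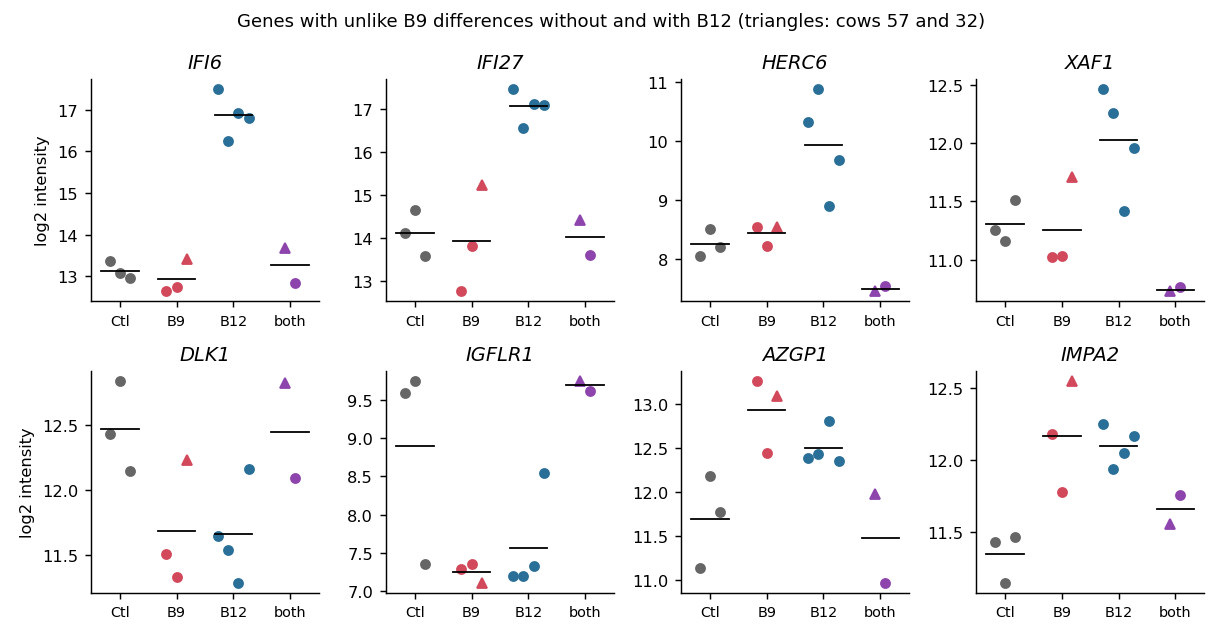
Log2 intensity in each liver array by treatment group (Ctl is Control, both is B9 + B12), with group means as lines and cows 57 and 32 as triangles. The 4 B12 arrays lie above all others in IFI6 (16.25 to 17.50) and IFI27, and for DLK1, IGFLR1, AZGP1 and IMPA2 the order of the groups with and without vitamin B9 turned with vitamin B12.

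Among the other pathway lists, cholesterol synthesis had a median difference of −0.317 with 2 of 19 genes above 0, and none passed an unadjusted p of 0.05. The median was −0.659 without and −0.0204 with vitamin B12, and −0.00235 without cows 57 and 32. It was −0.0421 without cow 57 and −0.586 without cow 41, −0.127 with the processed signal, −0.138 with 75th percentile scaling, −0.0832 with array weights and −0.573 with slide as a fixed block. MSMO1, a sterol demethylating enzyme, differed by −1.03 ± 0.649 and by −0.07 without both cows. Of 11 imprinted growth genes described, 3 were higher and 0 lower at an unadjusted p below 0.05 (7.11% and 6.98% of all genes described were), namely NNAT, MEST and CDKN1C (1.35, 0.50 and 0.67, and 0.72, 0.26 and 0.28 without cows 57 and 32). NNAT, a small membrane proteolipid, was 8.37, 8.49 and 7.70 in Control and 10.09, 8.83 and 10.72 in B9 cows, but 8.52, 9.96, 8.59 and 8.37 in B12 and 10.88 and 8.76 in B9 + B12 cows, where the groups overlapped.

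At the same threshold 3 of 7 metallothionein and zinc genes were higher (42.9%, where 7.11% of all genes described were), the factor MTF1 (0.24), MT3 (0.48) and the transporter SLC39A4 (0.44), and without cows 57 and 32 these differed by 0.20, 0.25 and 0.18. The other 4 were all below 0 and did not pass, among them MT1A (−0.54), MT2A (−0.15) and the zinc transporter SLC39A14 (−0.16), and the median of the list was −0.152. Of 15 genes of the amino acid stress response 2 were higher and 1 lower at this threshold (20% of the list against 14.1% of all genes described). PYCR1, an enzyme of proline synthesis, differed by 0.94 ± 0.318 (0.60 without both cows), VLDLR, a lipoprotein receptor, by 0.39 (0.14) and DDIT3, a stress-induced transcription factor, by −0.51 (−0.23). Of 21 genes for fat synthesis and storage 1 was lower, the mitochondrial glycerol-3-phosphate acyltransferase GPAM (−0.52 ± 0.213, and −0.42 without both cows), and 1 was higher, the acyltransferase AGPAT2 (0.36, and 0.15 without both cows), a share of 9.52% against 14.1% of all genes described.

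Markers of other cell types were also examined. The summed level of 5 markers of B and plasma cells was 10.43 to 11.66 without vitamin B9 and 10.98 to 12.27 with it, the highest being cow 57 (12.27) and cow 32 (12.12). For 11 markers of T and natural killer cells the ranges were 13.57 to 14.13 and 13.6 to 14.41, again with cows 57 (14.41) and 32 (14.25) highest, and for 6 red blood cell genes 12.93 to 13.83 and 12.74 to 14.45 with the same cows highest. Just below cow 32 lay cow 38 (14.24) for the T and natural killer cell markers and cow 39 (14.1) for the red blood cell genes. For 13 macrophage markers they were 17.19 to 17.52 and 17.36 to 17.68, and MSR1, a macrophage scavenger receptor, was 1 of the 92 genes (−0.45, and −0.31 without both cows), whereas 10 of the 13 macrophage markers were above 0, with a median of 0.0955, and CD14, the lipopolysaccharide co-receptor, was higher (0.33, unadjusted p = 0.0406 by limma, and 0.11 without both cows). Of 6 endothelial markers 2 were higher at an unadjusted p below 0.05 (33.3% against 14.1% of all genes described in either direction), the adhesion molecules PECAM1 and CDH5 (0.60 and 0.42, and 0.32 and 0.15 without both cows). With vitamin B12 3 of the 6 were higher, where 6.08% of all genes described were, with a median of 0.406 (0.298 without both cows). The summed level was 13.52 to 13.88 without vitamin B9 and 13.61 to 14.11 with it, the highest being cow 32. Of 7 neutrophil markers 2 were higher, ELANE and MMP9, and 1 lower, LTF, at an unadjusted p below 0.05 (42.9% against 14.1% of all genes described). These differed by 0.34, 0.18 and −1.36, and by 0.20, 0.08 and −0.78 without both cows, when none of the 7 passed. The part of these cells in the differences above was not tested. In a biopsy, fewer cells of a type and less RNA per cell cannot be told apart.

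The same contrast was taken in the mammary gland of 13 cows, of which 12 also gave liver. Among the 92 genes, 50 had the same sign there (45% of all genes described did), with a median size of 0.0509, and 7 had an unadjusted p below 0.05, against 4.75% of all genes described, and 5 of these 7 had the sign of the liver. The others were AQP1, a water channel (0.44 in liver and −0.61 in mammary gland), and OSBPL9, a lipid transfer protein (−0.29 and 0.15). EFHD2 differed by 0.38 in liver and 0.39 in mammary gland (unadjusted p = 0.0692 in the latter), LIPA, the lysosomal acid lipase, by −0.43 in liver and −0.39 in mammary gland, and CEACAM19 by 0.90 and 0.41. CDKL4, RABL3, SNF8 and GALNT18 differed in the mammary gland by 0.05, −0.03, −0.05 and −0.07. In a model of both tissues, the difference between tissues called 0 genes (smallest adjusted p = 0.476 by limma, 4535 probes at an unadjusted p below 0.05). These probes numbered 10524 with 75th percentile scaling. Leaving out 1 liver array, with at least 2 kept per group, gave 2467 to 7617.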

How the data were processed

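Liver RNA of 12 cows and mammary gland RNA of 13 was hybridised as Cy3-labelled cRNA to Agilent bovine arrays, 1 cow per array. The deposited scanner files hold median spot and local background intensity on a linear scale, with spot flags, as the authors' service laboratory read them with Agilent Feature Extraction (10.7.3.1 per the file headers, 9.1 in the submitters' processing notes). The authors also deposited a log2 table, background-corrected by normexp and normalized between arrays, which served as an alternative only. Here intensities were corrected by normexp with an offset of 50 and quantile-normalized within each tissue, outlier spots were left out and spots of a probe averaged (43653 probes), in limma 3.58.1 under R 4.3.3.

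The model had terms for vitamins B9 and B12. Effects at each level of vitamin B12 and the interaction came from a model of the 4 groups. A gene was called at an adjusted p of at most 0.05 (Benjamini-Hochberg over all probes) and at least 2-fold, as in the study's methods. Single values were tested by exact permutation of vitamin B9 within each level of vitamin B12 (300 arrangements, smallest p 0.00333). In simulated data 87% of 100 probes changed by 1.5 on the log2 scale and 100% of 100 changed by 3 were called. No smaller change was simulated, and the largest difference among the genes apart at both levels of vitamin B12 was 0.979. The simulation therefore cannot show how often changes of that size would be found. How deviations shared between arrays affect these shares was not tested.

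A gene was represented by its brightest probe. Named were the 10 largest differences in each direction among genes apart at both levels of vitamin B12, the 4 largest in each direction among those apart in opposite directions, the 5 smallest p, the genes the study discusses for liver, the folate lists, the list with the highest share of genes apart at both levels, and on/off genes (1, CHRDL2, well above background on all 5 arrays with vitamin B9 and 1 of 7 without, at 0.07, and at 1.42 with the processed signal). Others were chosen after their values were seen. The genes, lists and comparisons were chosen with earlier results of these data known.

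Both tissues of 12 cows were paired by animal. Their deviations from the group means correlated with r from −0.255 to 0.286, over 0.1 in 4 cows. P-values measure the spread between 2 to 4 cows per group. Alternatives covered background correction, scaling, filters, slide and scan day as blocks, array weights, Cyber-T and leaving out arrays. Some genes of the lists, counted in the list values, are not reported here by name.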

Additional observations from a re-analysis of the deposited data

Results flagged for a closer look

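Of 96 results tested for a single array far from its group in the 4 B12 arrays, 5 had a gap beyond Dixon's critical value, and chance gives about 1 in 20. For HP the gap was 0.846 of the group's range, with cow 52 at 15.08 and the others at 17.49 to 17.93. The gap was 0.902 for IGFLR1 (cow 52 at 8.55, others 7.20 to 7.33) and 0.881 for ABCC1 (cow 52 at 7.58, others 7.21 to 7.26). It was 0.845 for AZGP1 (cow 40 at 12.81, others 12.36 to 12.43) and 0.862 for MTFMT (cow 36 at 8.90, others 8.51 to 8.56).

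In 8 genes every array with vitamin B9 lay on opposite sides of its comparison group in cows with and without vitamin B12. Since this chose them, and all 37 genes of this kind had an unadjusted interaction p below 0.05 by limma, the values are a description and the difference was not tested independently. The interaction, as the effect with vitamin B12 minus that without it on the log2 scale, was −2.27 for AZGP1, −1.26 for IMPA2, −1.25 for CTSC and −0.56 for SNURF. It was 3.77 for IGFLR1, 1.53 for GADD45B, 1.76 for CLRN2 and 0.93 for TMEM100. The adjusted p by limma was 1 for each.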

How the results depend on the processing

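The main effect of vitamin B9 called 0 genes under every alternative run, and none of the 40 genes with an unadjusted p below 0.05 among the 146 followed singly turned its direction. These were picked by their p on the same arrays, and those lying apart at both levels could not turn when arrays were left out. Their steady direction is therefore no independent evidence. With vitamin B12, 1 gene (IFI6) was called with normexp offset 0 or 16, without background correction, with 75th percentile scaling, in the authors' table, among probes well above background on at least 3 arrays and by the mean of all probes, and 3 genes without the 3 arrays whose titles carry an x. Cyber-T called 4 genes without vitamin B12, 13 with it and 1 for the interaction. Without cows 57 and 32, chosen after seeing the data, 8 genes were called with vitamin B12 and 2 for the interaction, and 231 lay apart at both levels, as did 261 without the x arrays. Leaving out 1 array gave 0 to 116 genes with vitamin B12 and 0 to 11 for the interaction (both highest without cow 38, and 7 and 4 without cow 32, where the lone array is assumed to vary like the other groups), and 108 to 426 genes apart at both levels (426 without cow 38, 366 without 41, 326 without 42, 315 without 39, 151 without 43 and 150 without 51). A rule of separation is met more often with fewer arrays.

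The median of the folate cycle turned to 0.0545 with the processed signal, 0.103 with 75th percentile scaling, 0.0286 with slide as a fixed block and 0.00869 without cows 57 and 32. The first 3 settings moved the median of all genes from 0.0373 to 0.133, 0.15 and 0.126, and it was −0.00729 without both cows. The correlation between the effects at both levels of vitamin B12 was −0.109 to 0.511 when 1 array was left out (lowest without cow 57, highest without cow 41), and turned to −0.043 without the x arrays and −0.135 without both cows. Probes at an unadjusted p below 0.05 numbered 1435 to 7984 when 1 array was left out, 9155 with slide as a fixed block and 1529 with array weights. The causes were not tested. With the cow as a replicate block, the difference between tissues called 0 genes, as it did without pairing.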
